A study of Rattus norvegicus with 939 samples.

Results

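Hepatocytes release glucose by gluconeogenesis, in which pyruvate, lactate and amino acids are built up into glucose, and they burn glucose by glycolysis. The genes examined here sit where those opposed routes part or are fed. Pc encodes pyruvate carboxylase, which makes oxaloacetate from pyruvate in mitochondria, Pck1 encodes the cytosolic phosphoenolpyruvate carboxykinase, which takes oxaloacetate to phosphoenolpyruvate, and Fbp1 encodes fructose bisphosphatase, which removes a phosphate that glycolysis would have added. Pklr encodes the liver pyruvate kinase, the last step of glycolysis, which runs against them. Ppargc1a encodes PGC-1 alpha, a transcriptional coactivator that fasting hormones raise in liver and that promotes the gluconeogenic programme. Tat and Sds encode tyrosine aminotransferase and serine dehydratase, which break down amino acids to carbon that can enter gluconeogenesis. In liver, glucagon (through cyclic AMP) and glucocorticoids raise most of the gluconeogenic genes, insulin lowers them, and glucose and insulin raise Pklr.

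These 7 genes were taken by name from 14218 genes measured on rat expression arrays, each through its probe set with the highest mean value, and they were followed over all compounds, doses and times of a study of primary rat hepatocytes. The study exposed cultured cells to 125 compounds at 140 compound-dose combinations for 0.67 d or 1 d (826 treated arrays) beside vehicle controls (113 arrays), and the vehicle of all arrays was labelled DMSO. Arrays were grouped here into 5 campaigns of 824, 34, 12, 12 and 57 arrays, a name that the titles and descriptions do not give. In campaigns 1 to 3, 128 compound-dose comparisons set the treated arrays, in most cases 3 at each time, against the controls whose description names the compound; campaign 4 repeated chlorpromazine at 1 d and campaign 5 ran 6 compounds at 3 doses each at 1 d. The title of each control carries a code with a date-like number, read here as a culture day (54 days in all). The titles do not say what the number stands for. Each array has an RNA extraction day and a hybridization day (23 and 41 days). For some compounds a replicate number is repeated within a dose and time, so leaving out a number can remove several arrays. Strain, sex, age and number of donor animals, culture medium and added hormones are not given in the sources used here, and nothing labels treated replicates as separate cultures, so the p-values measure the spread between these samples, which may be technical.

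Values are log2 signals of the RMA method as deposited. Since each gene comes from its own probe set, levels of different genes compare only roughly, as in the marker means and percentiles given below. A gene was called higher or lower with a compound where limma's moderated test, fitted with exposure time as a covariate, gave a p of at most 0.01 after Benjamini-Hochberg adjustment over all genes and the change was at least 1.5-fold. Of the markers that define the labelled cell, Alb (albumin) had a mean of 14.34 in controls, and the 9 hepatocyte markers measured had means of 10.0 (Hnf4a) to 14.34. Among markers of other liver cells, the highest control means were 10.2 for Cd68 (Kupffer cells), 8.67 for Epcam (bile duct cells), 7.5 for Lyve1 (endothelium) and 7.09 for Acta2 (stellate cells). Most of these lists lay lower, with list means of 5.85 (Kupffer cells), 5.71 (bile duct cells), 5.53 (endothelium) and 5.59 (stellate cells). The lowest genes of the lists had means of 4.09, 3.93, 4.44 and 4.65 in that order. These levels do not measure the share of other cells in the cultures. Array medians lay between 5.41 and 5.73. A pair of arrays on hybridization day 2 stood apart from the other arrays of their compounds. The array labelled gemfibrozil, 1 d, replicate 1 of that day read 10.65 for the fibrate target Ehhadh, against 4.16 to 5.11 in the other 5 gemfibrozil arrays, and the array labelled clofibrate, 0.67 d, replicate 1 of that day read 4.02, against 6.83 to 12.3 in the other 5 clofibrate arrays. Those 5 clofibrate arrays also differed among themselves, with 12.16 and 12.31 on hybridization day 6 and at most 7.13 on the others. Whether the pair was mislabelled was not tested, and fibrate results are given with and without it.

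The control regions of these genes are known for hormone and glucose response elements, so the promoters of the 3 members in which a searched motif was found are shown, from RefSeq sequence on build GRCr8 (5 of 7 members matched the promoter table; the windows run from 250 bases before to 50 bases after the annotated start). Capitals mark the motifs. Pck1 holds the cyclic AMP response element variant TTACGTCA, 93 to 86 bases before its start (chr3:182348322-182348621, plus strand):
Pck1: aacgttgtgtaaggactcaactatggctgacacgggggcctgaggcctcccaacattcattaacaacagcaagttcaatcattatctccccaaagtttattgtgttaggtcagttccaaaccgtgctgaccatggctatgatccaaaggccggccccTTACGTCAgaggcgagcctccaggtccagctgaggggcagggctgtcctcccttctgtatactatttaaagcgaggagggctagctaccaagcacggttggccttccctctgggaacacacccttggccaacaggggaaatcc
Ppargc1a holds the palindromic cyclic AMP response element TGACGTCA, 181 to 174 bases before its start (chr14:63634058-63634357, plus strand):
Ppargc1a: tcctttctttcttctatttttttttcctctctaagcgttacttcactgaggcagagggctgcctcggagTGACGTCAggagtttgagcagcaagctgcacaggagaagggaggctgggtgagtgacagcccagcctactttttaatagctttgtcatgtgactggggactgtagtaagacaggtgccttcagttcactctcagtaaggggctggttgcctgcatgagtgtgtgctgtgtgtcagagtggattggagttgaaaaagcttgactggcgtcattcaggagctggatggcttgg
Pklr holds a match to the carbohydrate response element (CACGNG and CNCGTG, 5 bases apart), 168 to 152 bases before its start, and to the palindrome bound by HNF1 (GTTA and TTAAC, 4 bases apart), 92 to 80 bases before it (chr2:176841014-176841313, plus strand):
Pklr: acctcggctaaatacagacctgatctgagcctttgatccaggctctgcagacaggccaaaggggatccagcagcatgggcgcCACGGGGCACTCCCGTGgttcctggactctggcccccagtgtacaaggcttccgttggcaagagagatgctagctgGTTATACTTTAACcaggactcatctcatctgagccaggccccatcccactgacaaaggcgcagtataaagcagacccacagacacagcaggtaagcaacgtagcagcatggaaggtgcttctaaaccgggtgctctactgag
Both strands were searched. Of 33469 promoter windows of the same length, 0.807% held TTACGTCA, 1.83% held TGACGTCA, 0.0329% (11 promoters) held the carbohydrate element and 0.161% held the HNF1 palindrome. Neither cyclic AMP motif overlapped another motif searched. The windows of Fbp1 and Tat held none of the 4 motifs. On GRCr8, Pck1 spans chr3:182348572-182354521, Ppargc1a chr14:63073505-63729215 and Pklr chr2:176840779-176849637, so that the Ppargc1a and Pklr windows lie inside the annotated gene spans. The Fbp1 window (chr17:2213457-2213756) also lies inside its gene span (chr17:2212941-2235749), so the bases before that span were not searched.

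Across the 128 comparisons, the 7 genes separated into 3 patterns. Fbp1, Pklr and Pc moved mainly downward: Fbp1 was called lower in 72 comparisons and higher in 6, Pklr lower in 65 and higher in 1, and Pc lower in 35 and higher in 3. Pck1 and Tat moved both ways, with Pck1 higher in 14 and lower in 24 and Tat higher in 14 and lower in 7. Ppargc1a and Sds were called higher in 3 and 2 comparisons and lower in none. The whole table gives the scale: 3.67% of all gene and comparison tests were called higher and 4.92% lower (8.59% either way), and the median gene was called in 3 of 128 comparisons. Fbp1 ranked 50th of 14218 genes by number of calls, Pklr 253rd, Pck1 and Pc 1282nd, Tat 2565th, Ppargc1a 6927th and Sds 7557th. As bulk RNA was measured, fewer hepatocytes and less RNA per hepatocyte cannot be told apart.

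The median log2 change over all comparisons was -0.84 for Fbp1, -0.80 for Pklr and -0.35 for Pc, beside 0.02 for the median gene. It was -0.14 for Pck1, -0.09 for Ppargc1a, -0.05 for Tat and 0.06 for Sds. Pck1 had the widest span, between -2.58 and 3.08, at the 99.4th percentile of all genes by spread of its changes, and Sds the narrowest of the 7, between -0.33 and 0.73. Of the 246 calls, 137 had no overlap between the treated arrays and their controls. Over all genes, 9.75% of tests, called or not, had no such overlap, 5.08% with the treated arrays above and 4.68% with them below. These shares stand beside the counts that follow, which also take called and uncalled comparisons, and not beside the 137 of the calls. For Fbp1 the treated arrays lay below all controls in 55 comparisons, for Pc in 36 and for Pklr in 23. Pck1, whose controls spread most, lay below in 5 and above in 4.

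**Figure D1:**
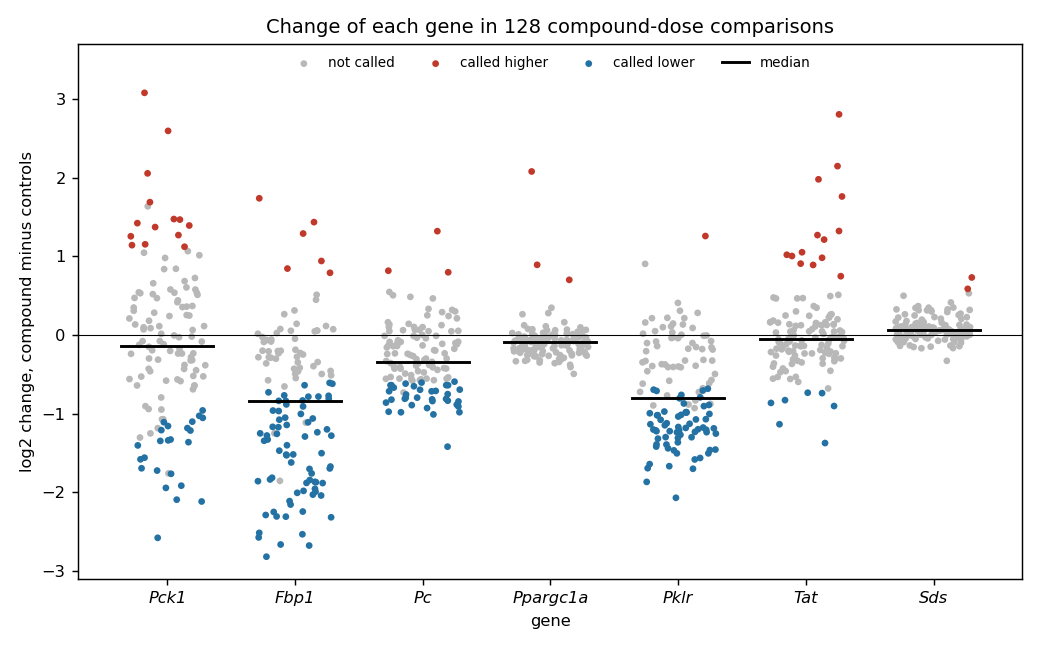
Change of each gene, as log2 of compound minus controls on the vertical axis, with 1 point per compound-dose comparison (128 per gene), red where called higher, blue where called lower, grey where not called, and a black line at the median. Fbp1 and Pklr carry 72 and 65 blue points, while Pck1 and Tat have red points up to 3.08 and 2.81 and Sds stays between -0.33 and 0.73.

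Pck1 rose most with zidovudine, a nucleoside inhibitor of reverse transcriptase, at 14800 µM. Its arrays read 11.63, 11.55 and 11.71 at 0.67 d and 12.08, 12.16 and 11.72 at 1 d with zidovudine, against 7.14 to 9.89 (median 8.71) in the 34 controls. The groups did not overlap, and the log2 change was 3.08 ± 0.23 (SE, 6 treated arrays, adjusted p = 9.19e-15). Doxofylline, a xanthine bronchodilator, at 13500 µM gave 12.17, 11.90 and 10.87 at 0.67 d and 12.16, 12.50 and 11.66 at 1 d, against 7.91 to 10.36 (median 9.28) in 6 controls. That change was 2.60 ± 0.35 (SE, adjusted p = 3.19e-05), again with no overlap. Staurosporine, a broad protein kinase inhibitor, at 1.3 µM gave 11.08 to 11.63 against the same controls, a change of 2.06 ± 0.22 (SE, adjusted p = 1.46e-05).

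Zidovudine was also run at 1000 µM, with the same 34 controls. There Pck1 read 9.45 to 10.90, which overlapped the top of the control range, and rose by 1.42 ± 0.22 (SE, adjusted p = 6.58e-04). Pck1 was 1 of only 2 genes of 14218 called in that comparison, although the call was lost when 1 of the 6 treated arrays was left out. The other 10 compounds with a Pck1 rise were griseofulvin (1.69), tretinoin (1.47), tenidap (1.47), etoposide (1.39), simvastatin (1.37), idarubicin (1.27), marimastat (1.25), nimesulide (1.15), cytochalasin B (1.14) and rapamycin (1.12). Of the 14 rises, 11 kept the call with each treated array left out in turn. Without the treated and control arrays of replicate 1, which left 0 to 4 treated arrays (median 4) a comparison, Pck1 was called higher in 5 comparisons, while leaving out replicate 2 or 3 kept the count within 1.5 times of 14.

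Pck1 fell most with pantoprazole, a proton pump inhibitor, at 650 µM. The 6 treated arrays read 5.33 to 6.35, all below the 7.59 to 9.67 (median 8.35) of 8 controls. The change was -2.58 ± 0.28 (SE, adjusted p = 1.51e-06). With 4,4'-methylenedianiline, an aromatic amine, at 296 µM, Pck1 read 6.27 to 7.13, against 7.97 to 9.53 in 12 controls, a change of -2.12 ± 0.19 (SE, adjusted p = 2.76e-08). Colchicine, which blocks microtubule assembly, at 1000 µM gave 6.23, 8.54 and 6.89 at 0.67 d and 6.36, 6.25 and 6.25 at 1 d, against 7.82 to 9.89 (median 8.86) in 28 controls. Here 1 array lay inside the control range, and the change was -2.09 ± 0.23 (SE, adjusted p = 3.18e-09). With the antidepressant doxepin at 132 µM Pck1 was called lower (-1.16), but the call was lost without replicate 2 (-1.01) and without replicate 3 (-0.77), and the change was 0.16 with hybridization day as a fixed block, an alternative added after the data were seen.

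Fbp1 rose with 6 compounds, led by valproic acid. Valproic acid, a branched fatty acid used against epilepsy, at 1000 µM gave 11.65, 11.73 and 11.52 at 0.67 d and 11.71, 11.91 and 11.21 at 1 d, against 9.41 to 10.41 (median 9.82) in 12 controls. The change was 1.74 ± 0.13 (SE, adjusted p = 5.39e-09). Fenofibrate, a PPAR alpha agonist, at 250 µM gave 10.94 to 11.36 against 8.98 to 10.37 in 22 controls (1.44 ± 0.14, SE, adjusted p = 5.16e-09). Valeric acid, a straight-chain fatty acid, at 23000 µM gave 10.88 to 11.41 against 9.43 to 10.01 in 6 controls (1.29 ± 0.11, SE, adjusted p = 3.46e-07). None of these 3 overlapped its controls. The rises with staurosporine (0.94), chlorambucil (0.84) and simvastatin (0.79) were smaller, and chlorambucil kept its call in only 3 of the 6 fits that left out a treated array.

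The falls of Fbp1 were larger and far more frequent. With labetalol, a blocker of adrenergic receptors, at 250 µM it read 7.19, 6.55 and 7.28 at 0.67 d and 5.87, 5.74 and 6.76 at 1 d, against 8.98 to 9.77 (median 9.38) in 6 controls. The change was -2.82 ± 0.22 (SE, adjusted p = 1.15e-06), with every treated array below every control. Vinblastine, which also blocks microtubule assembly, at 45 µM gave 5.69 to 8.49 against 9.26 to 10.37 in 16 controls (-2.68 ± 0.25, SE, adjusted p = 1.52e-09). 4,4'-Diethylaminoethoxyhexestrol, a cationic amphiphilic drug, at 20 µM gave 6.44 to 8.13 against 9.43 to 10.01 in 6 controls (-2.66 ± 0.17, SE, adjusted p = 1.25e-07). Of the 72 falls, 68 kept the call with each treated array left out in turn.

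Pc moved less far than Fbp1. It rose with valeric acid, which gave 9.28, 8.83 and 8.84 at 0.67 d and 9.25, 9.03 and 9.02 at 1 d, against 7.37 to 7.91 (median 7.77) in 6 controls, a change of 1.32 ± 0.11 (SE, adjusted p = 2.55e-07). It also rose with simvastatin, an inhibitor of cholesterol synthesis (0.82 ± 0.14, SE, adjusted p = 1.91e-04, arrays overlapping the controls), and with valproic acid (0.80 ± 0.11, SE, adjusted p = 1.27e-05). Its largest fall came with monocrotaline, a plant alkaloid toxic to liver, at 333 µM. The treated arrays read 5.93 to 6.58, all below the 7.37 to 7.91 of the controls, and the change was -1.42 ± 0.10 (SE, adjusted p = 1.87e-06). Labetalol (-1.01) and 4,4'-diethylaminoethoxyhexestrol (-0.98) followed. Only 2 of the 35 falls reached 2-fold.

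Ppargc1a lay low on these arrays, its control mean at the 26.4th percentile of all genes, and was called in 3 comparisons. Valeric acid gave 6.64, 7.22 and 6.66 at 0.67 d and 7.31, 7.10 and 6.63 at 1 d, against 4.74 to 5.01 (median 4.82) in 6 controls. The change was 2.08 ± 0.13 (SE, adjusted p = 1.41e-08), and the groups lay more than 1.5 log2 units apart. The other probe sets of the gene moved the same way, by 1.50 and 2.27. Zidovudine at 14800 µM gave 6.59, 6.12 and 5.52 at 0.67 d and 6.43, 6.01 and 4.92 at 1 d, against 4.60 to 5.89 (median 5.03) in 34 controls, a change of 0.89 ± 0.15 (SE, adjusted p = 2.25e-06) that fell to 0.18 (adjusted p = 0.589) without the arrays of replicate 1. The zidovudine arrays were numbered 1, 1 and 2 at each time, so that fit kept only the treated arrays numbered 2. Valproic acid gave 0.70 ± 0.14 (SE, adjusted p = 4.01e-04), a call lost at either time alone and without replicate 1 or 3. No compound lowered Ppargc1a to the 1.5-fold bound, and the lowest change was -0.49.

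Pklr, the glycolytic member, rose in 1 comparison. Sporidesmin A, a fungal toxin, at 0.15 µM gave 9.32, 8.85 and 7.94 at 0.67 d and 9.34, 9.68 and 8.50 at 1 d, against 7.24 to 8.39 (median 7.55) in 14 controls. The change was 1.26 ± 0.21 (SE, adjusted p = 3.46e-05), with 1 treated array inside the control range, and without replicate 1 it was 0.59 (adjusted p = 0.0689). The sporidesmin A arrays were numbered 1, 1 and 2 at each time, so that fit kept only the treated arrays numbered 2. The second probe set of Pklr gave 1.59 in the same comparison, and the changes of both probe sets ran together over the 128 comparisons (r = 0.93, a description, as the probe sets share arrays). The largest fall came with amineptine, an antidepressant, at 1667 µM, where Pklr read 5.70, 6.03 and 5.31 at 0.67 d and 5.14, 5.17 and 5.11 at 1 d, against 7.32 to 7.86 (median 7.45) in 6 controls (-2.07 ± 0.13, SE, adjusted p = 2.71e-08). Ethinylestradiol, a synthetic oestrogen, at 190 µM gave 5.12 to 6.03 against 6.84 to 7.85 in 12 controls (-1.87 ± 0.17, SE, adjusted p = 4.22e-08). 4,4'-Diethylaminoethoxyhexestrol gave -1.70 ± 0.16 (SE, adjusted p = 2.55e-06).

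Tat, a classical glucocorticoid target, rose most with the glucocorticoid dexamethasone at 456 µM. It read 11.86, 11.58 and 12.05 at 0.67 d and 11.87, 11.90 and 12.10 at 1 d, against 8.76 to 9.33 (median 9.16) in 8 controls. The change was 2.81 ± 0.10 (SE, adjusted p = 2.69e-11), 6.99-fold, with a gap of over 2 log2 units between the groups. Pck1, another gene that glucocorticoids raise in liver, changed by -0.65 with dexamethasone and was not called. Zidovudine at 14800 µM gave Tat levels of 10.88 to 11.68 against 8.65 to 9.53 in 34 controls (2.15 ± 0.10, SE, adjusted p = 2.28e-21), and sulindac, a cyclooxygenase inhibitor, at 750 µM gave 10.68 to 12.04 against 8.84 to 9.69 in 24 controls (1.98 ± 0.12, SE, adjusted p = 2.55e-13). The 11 other rises lay between 0.75 and 1.76. Tat fell most with pantoprazole, to 6.85 to 8.23 against 8.82 to 9.45 in 8 controls (-1.37 ± 0.17, SE, adjusted p = 6.18e-06). Falls with vinblastine (-1.14, overlapping the controls) and monocrotaline (-0.90) came next.

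Sds was the least responsive member, with its control mean at the 29.5th percentile of all genes. Sparteine, a lupin alkaloid, at 2222 µM gave 6.06, 6.53 and 6.31 at 0.67 d and 5.54, 6.37 and 5.95 at 1 d, against 5.04 to 5.79 in 6 controls (0.73 ± 0.13, SE, adjusted p = 2.41e-04). The lowest treated array lay inside the control range, and with hybridization day as a fixed block the change was 0.47 (adjusted p = 0.059). Cisplatin, a DNA cross-linker, at 63 µM gave 5.44 to 6.18 against 5.04 to 5.35 in 8 controls (0.59 ± 0.09, SE, adjusted p = 8.58e-05). That change is 1.50-fold, at the bound of the call, which it lost in 3 of the 6 fits that left out a treated array.

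**Figure D2:**
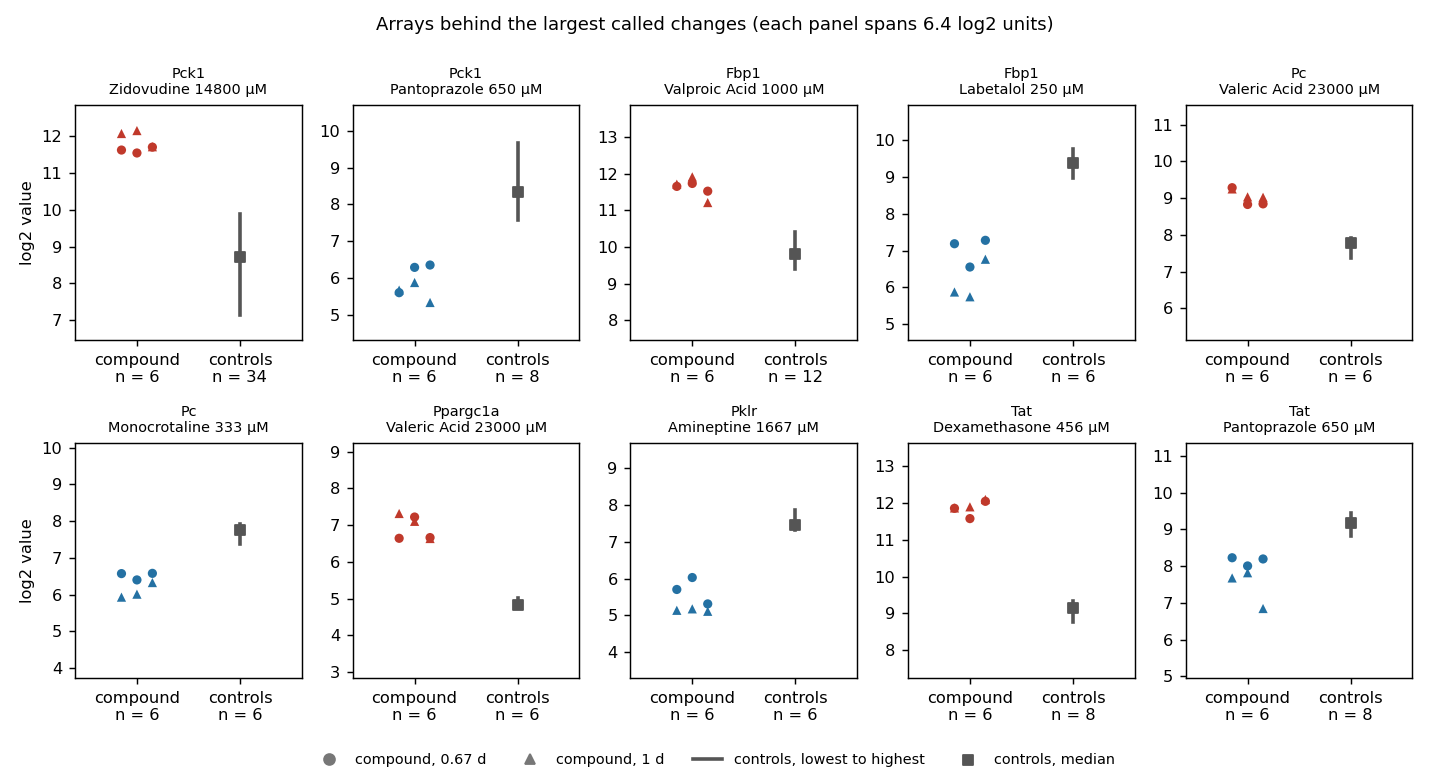
Log2 values of single arrays for the largest called changes, with the compound's arrays on the left (circles 0.67 d, triangles 1 d) and its vehicle controls on the right (bar from lowest to highest, square at the median). In the 10 panels, each of 6.4 log2 units, no treated array lies inside the range of its controls. An example is 11.55 to 12.16 against 7.14 to 9.89 for Pck1 with zidovudine. The largest rises of Pklr (sporidesmin A) and Sds (sparteine) overlapped their controls and are not among these panels.

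The members were next read together. At least 1 of the 7 was called in 97 of 128 comparisons, 0 were called lower in 45, 1 in 19, 2 in 26, 3 in 23, 4 in 12 and 5 in 3. The 3 comparisons with 5 falls were amantadine (an antiviral), ethinylestradiol and vinblastine, and in each the genes were Pck1, Fbp1, Pc, Pklr and Tat. With amantadine at 1500 µM, for example, Fbp1 changed by -1.87, Pck1 by -1.35, Pklr by -1.24, Pc by -0.86 and Tat by -0.73. As many as 4 members rose together with simvastatin at 160 µM (Pck1, Fbp1, Pc and Tat) and with valeric acid (Fbp1, Pc, Ppargc1a and Tat).

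Fbp1 and Pklr, which act in opposed routes, fell together in 56 comparisons. Their log2 changes had r = 0.74 over the 128 comparisons, Fbp1 and Pc had r = 0.69 (33 shared falls) and Pc and Pklr r = 0.67 (29 shared falls). These are descriptions, since comparisons share control arrays, and no test was made. Pck1 ran with Fbp1 less closely (r = 0.51, 23 shared falls), and in 6 comparisons it rose while Fbp1 fell. Those were zidovudine at 14800 µM (Pck1 3.08, Fbp1 -1.52), doxofylline (2.60 and -0.84), tenidap (1.47 and -0.84), idarubicin (1.27 and -0.78), nimesulide (1.15 and -1.67) and rapamycin (1.12 and -1.28). Fenofibrate split the pair the other way, with Fbp1 up by 1.44 and Pklr down by 0.81, and sporidesmin A raised Pklr by 1.26 and lowered Fbp1 by 1.11. Pck1 and Tat rose together in 5 comparisons (zidovudine at 14800 µM, doxofylline, staurosporine, griseofulvin and simvastatin) and fell together in 5, while sulindac lowered Pck1 by 1.18 and raised Tat by 1.98.

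**Figure D3:**
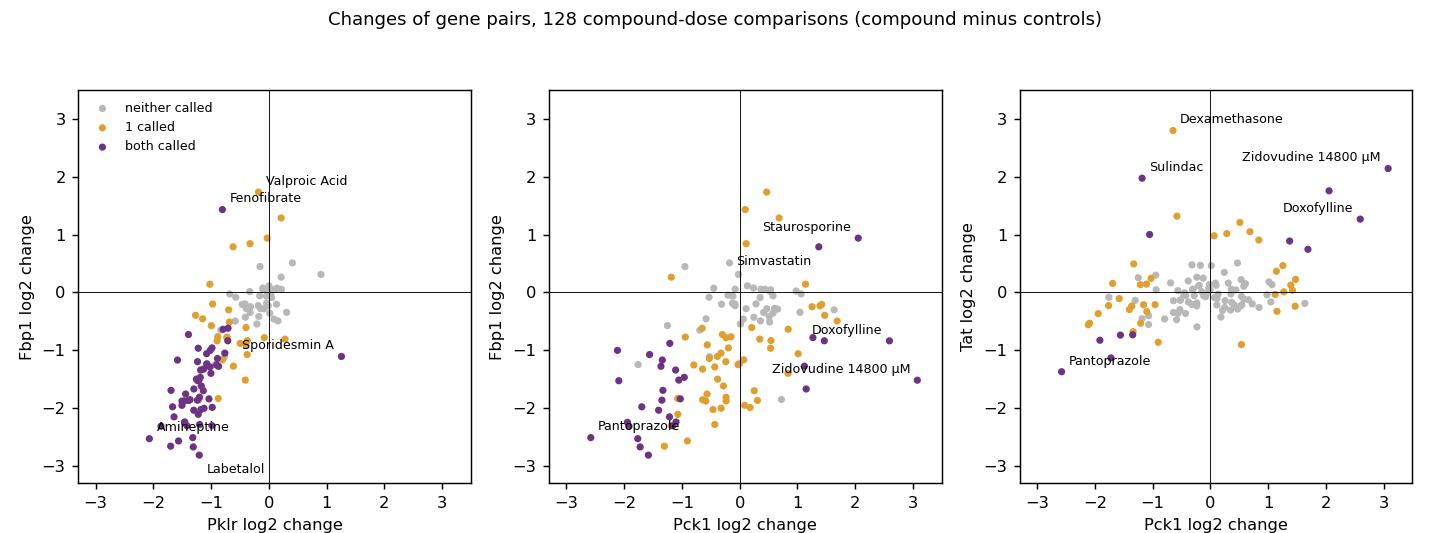
Log2 changes of gene pairs, compound minus controls, with 1 point per comparison (128) and colours for neither, 1 or both genes called. Fbp1 and Pklr share the lower left corner (56 shared falls), while zidovudine at 14800 µM lies at 3.08 for Pck1 and -1.52 for Fbp1 in the middle panel and sulindac at -1.18 for Pck1 and 1.98 for Tat in the right panel.

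The size of the whole response went with these calls. The 97 comparisons with a member called had a median of 1500 genes called, against 15 in the 31 comparisons with none. Any 7 genes are likelier to include a called one where more genes are called, so this contrast is not particular to the members. Of the 63 comparisons with over 1000 genes called, only clotrimazole at 60 µM (1519 genes) had no member called by limma or by the unmoderated test (the same fit with each gene's own variance), with 4 of 7 members (Pck1, Fbp1, Pc and Pklr) at an unadjusted p under 0.05. Hepatocyte markers moved with the members too. Over the 128 comparisons the median change of the 9 markers had r = 0.80 with the change of Fbp1, 0.67 with Pklr, 0.54 with Pc, 0.52 with Pck1, 0.49 with Tat, 0.25 with Ppargc1a and 0.10 with Sds. In the 15 comparisons with 4 or more members lower, 3 to 7 of the 9 markers were called lower and their median change was between -1.16 and -0.19. In 33 of the 72 falls of Fbp1 the marker median lay within 0.25 of 0, but 1 or more markers were called lower in 30 of these 33. For Pklr the marker median lay within 0.25 of 0 in 26 of 65 falls, with a marker called lower in 22 of the 26. The part that cell loss or a general fall of liver transcripts had in these falls was not tested. In the simvastatin, valproic acid, valeric acid, sulindac and high zidovudine comparisons, picked from those with rises, the marker median changed by -0.09 to 0.05. Single markers could still move, as Hnf4a had its largest rise, 1.08, with sulindac. With dexamethasone, which raised Tat most, the marker median changed by 0.34 and 2 of the 9 markers were called higher.

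The changes at both exposure times were set side by side. Over the 128 comparisons the changes at 0.67 d and at 1 d had the same sign in 121 for Fbp1, 113 for Pklr, 110 for Pc, 109 for Pck1, 95 for Tat, 91 for Ppargc1a and 59 for Sds, beside 72.7% of tests over all genes. Of the called falls, the change at 1 d was the larger in 61 of 65 for Pklr, 60 of 72 for Fbp1, 23 of 35 for Pc, 7 of 7 for Tat and 11 of 24 for Pck1, beside 63.4% of the falls of all genes. These counts are descriptions, with no test. The difference between the times, tested as an interaction, was called for no member in any of the 128 comparisons, against 0.025% of all tests (0.00725% higher and 0.0177% lower at 1 d), and 79 of the 896 limma tests had an unadjusted p under 0.05. The lowest adjusted p was 0.0104, for Fbp1 with valdecoxib.

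Compounds of known classes were set side by side, with doses that differ between them, so that values are given without a test, and the classes were chosen after the values were seen. The 4 proton pump inhibitors (lansoprazole 240 µM, omeprazole 400 µM, pantoprazole 650 µM and rabeprazole 333 µM) shared a profile. Fbp1 fell in 4 of 4, by 1.76 to 2.52, and Pklr fell in 4 of 4, by 1.32 to 1.67. Pck1 fell in 3, while with rabeprazole its change was -0.57 and was not called. Such falls were common elsewhere: over all 128 comparisons Fbp1 fell in 72, Pklr in 65, both together in 56 and Pck1 in 24. Pc was called in 0 of 4 by limma and by the unmoderated test, with changes of -0.24 to 0.16 and 1 of 4 at an unadjusted p under 0.05. In the dose series of omeprazole (campaign 5, 3 arrays a dose) Pc gave 0.66, 0.69 and 0.66 at 365, 400 and 435 µM, also not called (adjusted p = 0.158 to 0.215). Fbp1 read 6.71 to 8.75 with lansoprazole against 9.41 to 10.41 in controls, 7.06 to 8.64 with omeprazole against 9.43 to 10.01, 5.96 to 8.05 with pantoprazole and 6.84 to 8.28 with rabeprazole against 9.14 to 10.03, so that none of the 4 overlapped its controls.

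The 3 statins, which block cholesterol synthesis, raised Tat in 3 of 3: atorvastatin by 1.02, cerivastatin by 1.32 and simvastatin by 0.89. Only simvastatin was called for Pck1 (1.37), Fbp1 (0.79) and Pc (0.82), and only cerivastatin for Pklr (-1.15). Drugs that act on microtubules differed. Colchicine at 1000 µM and vinblastine lowered Pck1 by 2.09 and 1.72 and Fbp1 by 1.53 and 2.68, while griseofulvin at 75 µM, with Pck1 at 9.45 to 11.22 against 7.82 to 9.89 in 16 controls, raised Pck1 by 1.69 and Tat by 0.75 and was not called for Fbp1 (-0.50). At 2000 µM colchicine gave smaller falls than at 1000 µM, -1.36 for Pck1 and -1.28 for Fbp1, both called.

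Steroid receptor ligands raised Tat in 3 of 7 comparisons, namely dexamethasone, norethindrone (0.98) and danazol (0.91), while ethinylestradiol lowered it (-0.83, adjusted p = 9.98e-04). Fbp1 fell in 5 of 7 of them, beside 72 of all 128 comparisons. The retinoids isotretinoin and tretinoin, ligands of nuclear receptors for vitamin A acids, both lowered Pklr (tretinoin by 1.27), and tretinoin raised Pck1 by 1.47. Over all 128 comparisons Pklr fell in 65, and Fbp1 and Pklr fell together in 56. Among cyclooxygenase inhibitors, nimesulide and tenidap raised Pck1 (1.15 and 1.47) and sulindac lowered it (-1.18), whereas celecoxib and rofecoxib were called for no member and had none at an unadjusted p under 0.05. Valdecoxib, of the same kind, lowered Fbp1 by 1.88, Pklr by 1.47 and Pc by 0.91. Of the tyrosine kinase inhibitors, Mln-518 and gefitinib lowered Fbp1 (-2.25 and -1.86) and Pklr (-1.46 and -1.36), and erlotinib and imatinib were called for no member, with 1 member (Ppargc1a) and 4 members (Pck1, Fbp1, Pc and Pklr) at an unadjusted p under 0.05. Didanosine, another reverse transcriptase inhibitor, was called for no member at 500 µM (Pck1 0.54, the 1 member at an unadjusted p under 0.05). Stavudine, of the same class, at 1120 µM lowered Fbp1 by 0.77 and gave -0.94 for Pck1, which was not called (adjusted p = 0.0641).

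Among the fibrates, fenofibrate raised Fbp1 and lowered Pklr by 0.81, clofibrate at 500 µM was called for no member (Ppargc1a and Pklr had an unadjusted p under 0.05), and gemfibrozil at 2000 µM was called for Pklr alone (-1.21 ± 0.24, SE, adjusted p = 0.00151). The doubtful arrays decided part of this. Without its doubtful array gemfibrozil lowered Fbp1 by 2.48 ± 0.27 (SE, adjusted p = 2.76e-06), against -1.86 ± 0.54 (SE, adjusted p = 0.0126) with it, lowered Pc by 1.04 ± 0.13 (SE, adjusted p = 6.46e-06), against -0.73 (adjusted p = 0.0363) with it, and lowered Pklr by 1.43. Without its own doubtful array clofibrate gave 0.62 ± 0.18 (SE, adjusted p = 0.106) for Fbp1, against -0.08 with it, and was still called for no member.

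**Figure D4:**
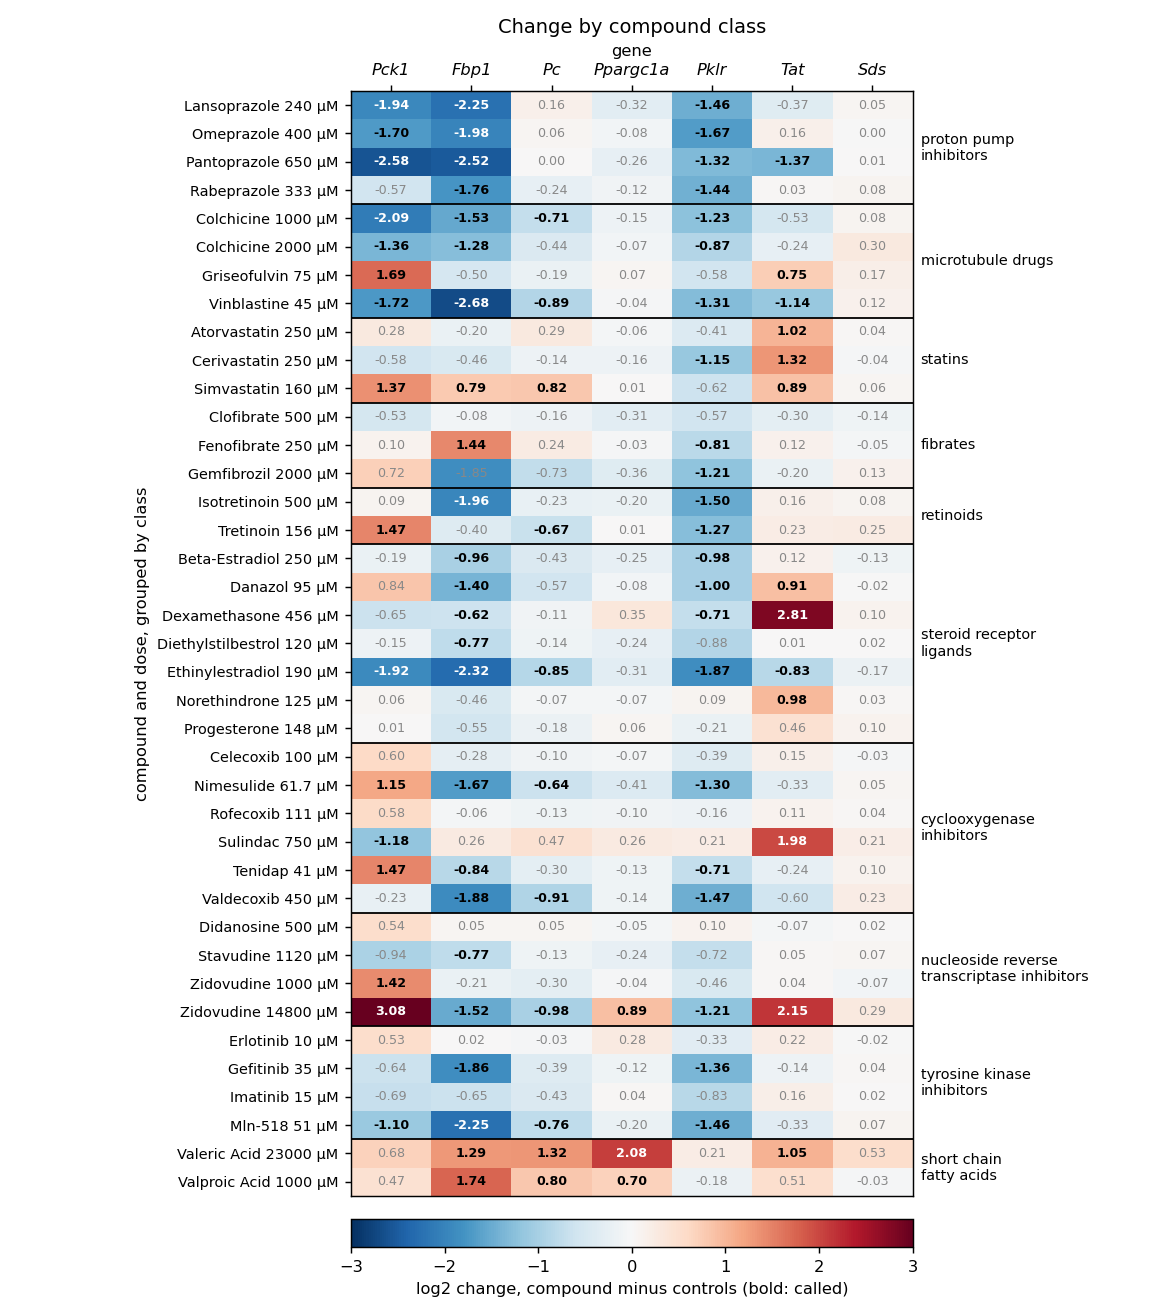
Log2 change, compound minus controls, of the 7 genes (columns) for compounds grouped by class (rows, with doses in µM), where red is higher, blue is lower, and bold black or white values were called. The proton pump inhibitors share falls of Fbp1 (-1.76 to -2.52) and Pklr with Pc at -0.24 to 0.16. The statins share rises of Tat (0.89 to 1.32). Over all 128 comparisons Fbp1 was called lower in 72, Pklr lower in 65 and Tat higher in 14.

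Related compounds were run at the same dose and times in 4 pairs: the anthracyclines daunorubicin, doxorubicin and idarubicin at 1.5 µM, and azathioprine and 6-mercaptopurine, the drug that azathioprine releases, at 0.5 µM. None of the 28 member differences was called, with p-values adjusted over all genes and the 4 pairs, against 1.98% of all tests (0.902% higher and 1.07% lower), and 7 had an unadjusted p under 0.05 in limma. The largest were those of Pck1, which was higher with idarubicin than with daunorubicin by 0.91 (95% interval 0.10 to 1.71, adjusted p = 0.217) and than with doxorubicin by 0.89 (0.20 to 1.58, adjusted p = 0.129). Against its own controls Pck1 was called only with idarubicin, where it read 9.39 to 10.44 against 6.91 to 9.94 in 18 controls, a change of 1.27, beside 0.35 with daunorubicin and 0.36 with doxorubicin. Fbp1 was called lower with daunorubicin (-0.81) and idarubicin (-0.78), not with doxorubicin (-0.49), and the difference between daunorubicin and doxorubicin was -0.32 (-0.67 to 0.04). Azathioprine minus 6-mercaptopurine gave 0.28 for Pklr (-0.23 to 0.79), which was called lower with 6-mercaptopurine alone (-0.68). Without replicate 1, 3 of the 28 differences were called (Sds for idarubicin against both others, and Tat against daunorubicin), and when treated arrays were compared without their controls 1 was (Fbp1, daunorubicin minus doxorubicin, -0.64, adjusted p = 0.00386).

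In campaign 5, 6 compounds were run at 3 doses with 3 arrays a dose and 3 controls, and 55 of the 57 arrays were hybridized on the main day of their replicate number. In the methapyrilene arrays replicate 2 stood apart. Fbp1 minus the control of the same number was -1.17, -1.84 and -1.09 at 100 µM in replicates 1, 2 and 3, but -2.13, 0.19 and -2.50 at 300 µM and -1.62, 0.03 and -3.16 at 500 µM. Of 126 tests of members, 3 were called, against 1.14% of all tests (0.647% higher and 0.494% lower). With omeprazole at 400 µM Pklr read 4.78, 5.03 and 5.45, against 6.75, 7.13 and 7.45 in the controls (-2.03, adjusted p = 0.00377), and at 435 µM its change was -1.79 (adjusted p = 0.00831). With omeprazole at 435 µM Tat read 8.59, 8.92 and 9.15, against 7.94, 8.15 and 8.40 in the controls (0.73, adjusted p = 0.00862).

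Values just short of the bound included Tat with clofibrate at 500 µM (0.91) and Fbp1 with omeprazole at 435 µM (-1.77, adjusted p = 0.0103). With the replicate number as a block, which here nearly equals the hybridization day, 10 member tests were called (3 higher, 7 lower). The added ones were Tat with clofibrate at 500 µM, Pck1 with omeprazole at 365, 400 and 435 µM, Pklr and Tat with omeprazole at 365 µM and Fbp1 with omeprazole at 435 µM. Without replicate 2 the count was 15 (3 higher, 12 lower), and without replicate 1 or 3 it was 0. Within numbers, Fbp1 rose with clofibrate at 500 µM by 1.45, 1.11 and 1.31 and Pck1 fell with omeprazole at 365 µM by 1.29, 1.28 and 1.65. No member was called between the highest and the lowest dose of any compound by limma or by the unmoderated test, against 0.0117% of all tests, and 0 of the 42 member tests had an unadjusted p under 0.05. Without replicate 2, Fbp1 with methapyrilene was lower at 500 µM than at 100 µM by 1.26 on the log2 scale (adjusted p = 7.48e-04), against a difference of -0.22 with all arrays.

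**Figure D5:**
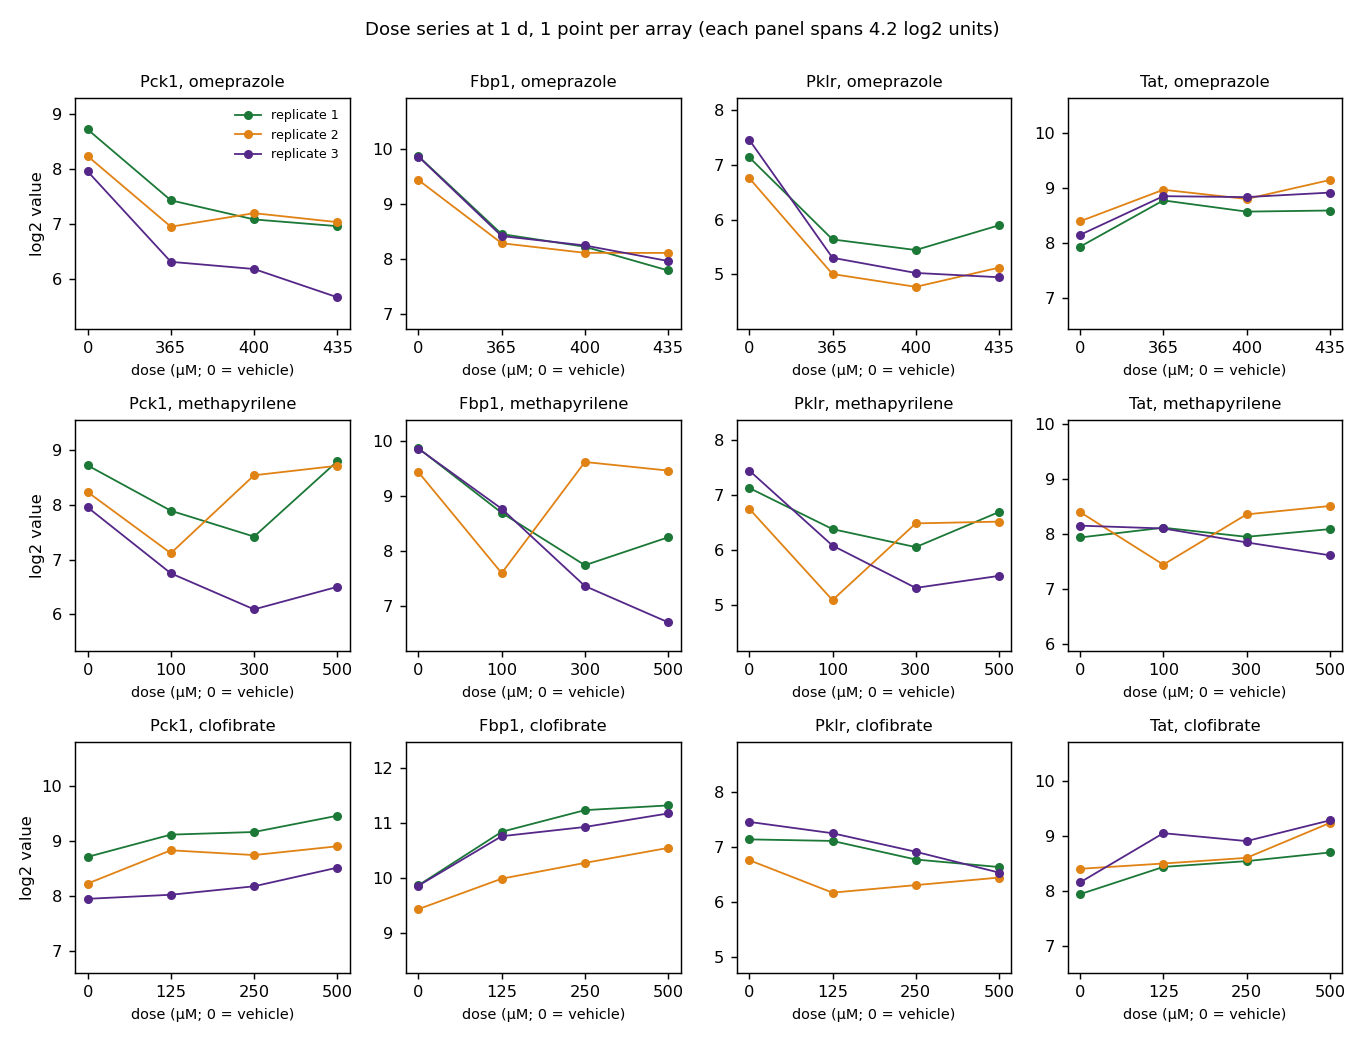
Log2 values of Pck1, Fbp1, Pklr and Tat at 1 d in the dose series of omeprazole, methapyrilene and clofibrate, with the dose in µM (0 is vehicle; doses evenly spaced, not to scale) on the horizontal axis and 1 line per replicate number. Omeprazole lowered Pklr in all 3 replicates, and replicate 2 of methapyrilene returned to control level for Fbp1 at 300 and 500 µM.

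Doses shared with campaign 1 allowed 7 comparisons at 1 d to be set beside their repeats. Pklr had the same sign in 7 of 7, Fbp1 in 6, Tat in 5, Pc and Sds in 4 and Pck1 and Ppargc1a in 3, beside at most 75.9% of all genes. For omeprazole at 400 µM the repeat and the first campaign gave -2.03 and -1.85 for Pklr and -1.53 and -2.14 for Fbp1. In the repeat of chlorpromazine at 43.9 µM (campaign 4, 6 treated arrays and 6 controls), no member was called, against 0.211% of all genes (0.0141% higher and 0.197% lower), and 3 of 7 had an unadjusted p under 0.05 in limma. Fbp1 read 7.51 to 8.96 with chlorpromazine, against 9.50 to 9.70 in controls, with no overlap and a change of -1.10 (adjusted p = 0.0237). Arrays were paired by replicate number, and each pair had its own hybridization day, so that pairing and day cannot be told apart. With the pair as a block the adjusted p was 0.00585, which passed the bound (1.51% of all genes were called in that fit). It also passed without replicate 5 (-0.92, adjusted p = 8.19e-04). Fbp1, Pc and Pklr were lower with chlorpromazine than in the control of the same number in 6 of 6 pairs.

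The members also varied without any compound. Among the 113 controls Pck1 ranged between 6.91 and 10.52, a 12.3-fold span at the 98.5th percentile of all genes by spread, while Fbp1 spanned 2.69-fold and Pc 2.61-fold. Culture day took 85.8% of the variance of Pklr, 84.2% of Fbp1, 82.8% of Pc, 75.8% of Tat, 69.8% of Pck1, 59.1% of Ppargc1a and 56.3% of Sds in controls of campaigns 1 to 3. With 51 days among 104 arrays, culture day holds 48.5% of the degrees of freedom, the share that a gene with no difference between days would give on average. Hybridization and extraction day were not in that split, so their part in the variance given to culture day was not tested. Pck1 was lower at 1 d than at 0.67 d, with means of 8.36 and 9.05, a difference of -0.68 ± 0.06 (SE, 52 arrays a time, culture day as block, adjusted p = 1.10e-13). It was higher at 1 d on only 4 of 51 days, and 0.668% of all genes were called between the times (0.387% higher and 0.281% lower at 1 d). No other member reached 1.5-fold, although Fbp1 (-0.14), Pc (-0.11), Tat (-0.09) and Sds (-0.12) had adjusted p-values between 5.66e-05 and 0.00992.

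Neighbouring genes of the same routes were read from lists. In the list of gluconeogenesis and glucose output (10 genes measured), 5.31% of tests were called higher and 15.2% lower. Pck2, the mitochondrial counterpart of Pck1, was higher in 38 comparisons and Got1, an aspartate aminotransferase, in 15, while Gpd1, a glycerol phosphate dehydrogenase, was lower in 64 and Gpt2, an alanine aminotransferase, in 46. The glycolysis list (12 genes) had 8.14% higher and 7.55% lower, with Pfkfb3, which raises an activator of glycolysis, higher in 58 and the hexokinase Hk2 in 31, and with Gckr, the glucokinase regulator, lower in 49 and Pfkl and Mlxipl in 19 each. Mlxipl encodes ChREBP, which binds the carbohydrate element of Pklr.

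Among 20 hormone and transcription genes, 16.6% of tests were called higher and 7.38% lower. Trib3, a stress-induced pseudokinase, was higher in 74 and Pdk4, which holds back pyruvate oxidation, in 73, while the glucagon receptor Gcgr was lower in 59 and the liver factor Hnf4a in 51. Amino acid breakdown (11 genes) had 4.40% higher and 27.4% lower. Gldc, of glycine cleavage, was lower in 78 and Fah, of tyrosine breakdown, in 67, whereas Oat and Aass were higher in 19 and 11. By likeness of log2 change over the 128 comparisons, the nearest genes were Slc22a7 to Fbp1 (r = 0.92), Klkb1 to Pklr (0.88), Nrtn to Ppargc1a (0.78), Gstt3 to Pc (0.76), Ahcy to Tat (0.74), Cobl to Sds (0.69) and Sik1 to Pck1 (0.64). The next nearest were Iyd and Enpp2 for Fbp1, Otc and Gamt for Pklr, Abat and Enpp2 for Pc, Rab3a and Plag1 for Ppargc1a, Atoh8 and Echs1 for Tat, Xkr4 and Nmb for Sds and Phyh and Insig2 for Pck1.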

How the data were processed

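Primary rat hepatocytes were profiled on Affymetrix rat expression arrays from polyA RNA. The authors deposited log2 values for 31099 probe sets on 939 arrays, which were used as deposited. The submitters' processing notes name RMA and the study's methods name its frozen form, and which of them made these values is not given in the sources used here. Probe sets with 1 gene symbol (20832; 436 had several and 9831 none) were named through RefSeq where it held the gene (20764 of 20832). The probe set with the highest mean stood for each of 14218 genes. The members, lists, classes and named genes were chosen with earlier results of these data known. For each member the text names the 3 largest called rises and the 3 largest falls, the 3 genes nearest by Pearson correlation of log2 change and, per list, the 2 genes most often called higher and the 2 most often called lower.

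Tests were fitted in R 4.3.3 with limma 3.58.1 (lmFit, eBayes) over all genes and adjusted by Benjamini-Hochberg. In campaigns 1 to 3 each compound and dose was set against the controls naming it, with time as a covariate, and a call needed an adjusted p of 0.01 or less and 1.5-fold or more. Campaign 5 was 1 fit of 57 arrays, and highest against lowest dose was called at 0.05. The number of arrays limits the precision. Replicate numbers paired the arrays in campaign 4, where every pair of the same number correlated over 0.1 (6 of 6, mean r 0.62, against -0.10 between numbers). Each number there was also a separate hybridization day, and nothing labels the pairs as matched cultures. The alternatives and their effect stand in the closing section, and hybridization day as a fixed block, each treated array left out in turn and the split of the dose series by number were added after the data were seen.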

Additional observations from a re-analysis of the deposited data

Results flagged for a closer look

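In the chlorpromazine repeat, the array of replicate 5 stood apart from the other 5 treated arrays for 5 of the 7 genes. It was lowest for Fbp1 (7.51, others 8.57 to 8.96), Pc (5.88, others 6.74 to 7.05) and Tat (6.83, others 7.79 to 8.36) and highest for Ppargc1a (5.80, others 4.82 to 5.12) and Sds (6.62, others 4.70 to 4.95). For Pklr the array of replicate 1 was highest (7.22, others 5.32 to 5.64). Among the vehicle controls at 0.67 d, Pc was highest in replicate 4 of control set 1 (8.35, others 7.65 to 7.75) and lowest in replicate 3 of control set 6 (7.19, others 7.63 to 7.81). Each was found by the gap of the most extreme array to its nearest neighbour as a share of the group's range, in groups of 4 to 10 arrays. Of 98 sets of gene and group so tested, 8 (8.16%) passed, where chance passes about 5%.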

How the results depend on the processing

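Counts over the 128 comparisons moved by over 1.5 times as follows. At a bound of 2-fold, Fbp1 was higher in 3, Pc higher in 1 and lower in 2, Ppargc1a higher in 1, Tat lower in 2 and Sds higher in 0. With all vehicle controls of a campaign Pklr was higher in 3 and Sds in 1. At 0.67 d alone, with fewer arrays, Pck1 was higher in 4 and lower in 12, Fbp1 higher in 3, Pc lower in 17, Pklr higher in 0 and lower in 13 and Tat higher in 6. At 1 d alone Pck1 was higher in 5 and lower in 9, Ppargc1a lower in 1, Tat lower in 11 and Sds higher in 1. A random effect of hybridization day and the replicate block each left Sds higher in 1, and the block gave Pklr higher in 2. Hybridization day as a fixed block gave Pklr higher in 2 and Sds in 0 and shared 205 of the 246 calls, and with each treated array left out in turn 1 rise of Sds was called in every fit. Subtracting array medians, a second quantile normalization, taking each gene as the median over its probe sets, extraction day as a random effect and leaving out the 2 doubtful fibrate arrays moved no count by over 1.5 times. Leaving out replicates 1, 2 or 3, Pck1 was higher in 5 to 17, Ppargc1a higher in 1 to 3 and lower in 0 to 1, Pklr higher in 0 to 2 and Sds higher in 1 to 3. In the dose series the replicate block gave 3 higher and 7 lower, leaving out a replicate gave 0 to 3 higher and 0 to 12 lower with 0 to 1 lower between doses (Fbp1 with methapyrilene), and the methods' t-test gave 0 higher and 1 lower. In the chlorpromazine repeat the block and leaving out replicate 5 each gave 1 lower (0 to 1 over all replicates). Matched pairs gave 1 difference without controls and 0 to 3 without a replicate. The cause of these moves was not tested. Of the log2 changes named, 556 alternative values kept direction and side of the bound, 41 lost the call, 2 gained it and 1 turned (Pck1 with doxepin, 0.16 with hybridization day as a fixed block). Over all 246 calls the replicate block shared 235 and the methods' t-test 226. In campaigns 1 to 3, 599 of 1003 pairs of the same number correlated over 0.1. In campaign 5, where the number nearly equals the hybridization day, 483 of 513 did (mean r 0.49, against -0.24 between numbers). With the genes of lowest mean left out, Ppargc1a and Sds were not tested. Control means of a culture day were 4.66 to 5.53 for Ppargc1a and 4.75 to 5.71 for Sds, beside array medians of 5.41 to 5.73, and whether a fall could be measured there was not tested.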
